A study of Mus musculus with 6 samples.

Results

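The major urinary protein (Mup) genes of the mouse were followed in 6 libraries from cerebellum, hippocampus and liver. Members were chosen by gene symbol: the 6 listed genes Mup3, Mup7, Mup11, Mup15, Mup17 and Mup20, and every joint row of the tag table whose records are all Mup genes, kept joint because its tags match several copies equally well. This gave 74 members, 6 listed and 68 joint, of 23139 features of the series with sense tags. One joint member, Mup4/Mup20/LOC100505376, had antisense tags only, so 73 members had sense tags. A further 16 features of a single Mup record, such as Mup2, Mup12 and Mup21, bring all Mup features to 90, and they are given beside the members.

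Major urinary proteins are small secreted lipocalins, proteins whose barrel-shaped pocket holds hydrophobic ligands. Hepatocytes make most of them, and the kidney passes them into urine, where they carry volatile scent compounds and act as chemical signals in their own right. The hepatic genes are transcribed more in males than in females, under pulses of growth hormone that act through Stat5b, and they also respond to thyroid hormone, glucocorticoids and androgens. Mup20 encodes darcin, a protein of male scent marks that attracts females.

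Each library pooled RNA of 3 C57BL/6 mice aged 6 months, either homozygous Atxn2 knockout (labelled Atxn2-KO) or wild type (WT), and there was 1 library for each genotype and tissue. Atxn2 encodes ataxin-2, an RNA-binding protein whose expanded form causes a spinocerebellar ataxia. Libraries were made by MACE (massive analysis of cDNA ends), in which a transcript gives 1 tag from near its 3' end whatever its length, so tag counts can be set side by side between genes. The sex of the animals is not given in the labels used here, and a protocol text that covers all libraries names midbrain and ages in weeks, where the sample labels give hippocampus and 6 months and were followed.

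Gene tags numbered 1774523 to 2727523 per library. Atxn2 itself gave 0, 1 and 2 tags in knockout cerebellum, hippocampus and liver, against 167, 194 and 115 in wild type. The marker genes went with the labelled tissues: Pcp2, a Purkinje cell gene, gave 7636 and 8697 tags in the cerebellum libraries against 27 and 74 in hippocampus, and Nrgn, a forebrain neuron gene, gave 8938 and 8940 in hippocampus against 55 and 64 in cerebellum. Xist, the transcript of the inactive X chromosome, gave 0 tags in each knockout library and 34, 49 and 87 in wild-type cerebellum, hippocampus and liver, while 4 Y-linked genes together gave 153 to 288 tags in every library. The wild-type pools thus hold transcripts of both kinds, and genotype and the sex makeup of the pools cannot be told apart.

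The Mup genes lie in 1 cluster on chromosome 4 (RefSeq positions, GRCm38.p6). Mup7 spans chr4:60066469-60070475, Mup11 chr4:60658466-60662432, Mup15 chr4:61435787-61439833 and Mup17 chr4:61591929-61595865. Mup20 spans chr4:62011337-62054143 and Mup3 chr4:62083476-62087317, with Mup21 beside it at chr4:62147832-62150841. The copies are close to identical where MACE reads them. Over the last 300 bases of the longest coding transcript of 22 Mup genes in GENCODE M21, the 231 pairs had a median identity of 96.7% (range 44.8% to 100.0%).

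How far a listed gene could be read alone is given beside the sharing of those 3' ends, and the 2 did not always go together. In Mup15 all 201 stretches of 100 bases in that window also occurred in another Mup transcript, and in Mup7 198 of 201 did. The shares were 73 of 201 in Mup11, 14 of 201 in Mup17, and 0 of 201 in Mup3, Mup20 and Mup21. In wild-type liver Mup15 had 2 tags of its own and 22299 in the 10 joint features that name it, whereas Mup3 had 14988 of its own and 2394 in 8 joint features. Mup20 had 246 alone and 17247 in 7 joint features, nearly all of them shared with the predicted Mup20-like record LOC100505376, which is not among the 22 transcripts compared. Mup2, no listed gene, had 10189 tags of its own although all its 201 stretches recurred in another Mup transcript. A row lists at most 3 records, and 61.9% of Mup tags stood in rows of 3, so some tags may match further copies.

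The promoters fell into branches of unlike sequence. RefSeq windows were at hand for 14 Mup genes, 5 of them listed (Mup20 had no entry). Each window ends at the start annotated with it. In some genes, Mup17 and Mup15 among them, that start lies inside the gene span given above, so the window overlaps the span. The 250 bases before the annotated start are shown for Mup17 and Mup15, which were 98.4% identical over 251 aligned positions, and for Mup3 and its neighbour Mup21, which were 92.3% identical over 247 but 75.3% (Mup3) and 72.8% (Mup21) identical to Mup17. Mup17 is shown because it is the listed gene that differed most between genotypes in liver, and Mup3 and Mup21 because these neighbours differed in opposite directions there. Each is on the minus strand and printed 5' to 3', with the TATA-like string TATATAA in capitals.
Mup17, chr4:61595833-61596082: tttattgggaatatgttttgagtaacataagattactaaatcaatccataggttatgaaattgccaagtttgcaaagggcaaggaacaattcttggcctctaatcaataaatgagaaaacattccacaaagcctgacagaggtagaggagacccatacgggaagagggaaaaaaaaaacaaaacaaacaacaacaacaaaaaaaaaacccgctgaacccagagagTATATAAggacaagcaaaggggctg
Mup15, chr4:61439705-61439954: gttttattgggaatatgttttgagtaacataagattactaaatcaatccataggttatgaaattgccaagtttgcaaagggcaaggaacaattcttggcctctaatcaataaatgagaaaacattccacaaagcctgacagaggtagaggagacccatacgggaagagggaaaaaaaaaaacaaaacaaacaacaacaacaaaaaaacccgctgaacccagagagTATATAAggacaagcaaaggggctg
Mup3, chr4:62087318-62087567: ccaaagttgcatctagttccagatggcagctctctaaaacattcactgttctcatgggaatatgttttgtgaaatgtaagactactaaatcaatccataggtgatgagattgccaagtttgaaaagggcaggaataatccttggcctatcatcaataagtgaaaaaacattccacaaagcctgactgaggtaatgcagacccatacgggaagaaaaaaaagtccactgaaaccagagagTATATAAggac
Mup21, chr4:62150842-62151091: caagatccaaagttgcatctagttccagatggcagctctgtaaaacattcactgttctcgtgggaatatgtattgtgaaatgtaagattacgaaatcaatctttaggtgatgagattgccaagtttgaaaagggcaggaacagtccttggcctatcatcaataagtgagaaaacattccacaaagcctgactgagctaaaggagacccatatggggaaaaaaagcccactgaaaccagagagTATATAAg
TATATAA, picked after the sequences were read and searched on both strands, lay in 11 of the 14 Mup windows and in 3.04% of all 32851 RefSeq windows of that length. It began 25 bases before the annotated start in Mup17 and Mup15, 11 before it in Mup3 and 8 before it in Mup21. In Mup17 and Mup15 the string thus lies inside the gene span given above. The related TATAAA, which overlaps it in Mup4 and Mup6, lay in those 2 windows only (12.4% of all windows). The Stat5-type string TTCNNNGAA and the Hnf1-type string GTTAAT were in 0 of 14 windows, against 7.02% and 6.43% of all windows. A match, or its absence from this short window, is a description of these letters and says nothing of the factors.

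Liver held nearly all Mup tags. All Mup features together gave 109838 tags in knockout liver and 195790 in wild-type liver, 6.19% and 7.18% of the gene tags. The counts were 658 and 1303 in knockout and wild-type cerebellum and 542 and 2604 in knockout and wild-type hippocampus, or 0.0232% to 0.122% of gene tags. Both liver libraries lay far above every brain library, and the 2 brain tissues overlapped: knockout hippocampus was the lowest library and wild-type hippocampus the highest of the 4.

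Among the listed genes Mup3 had the most tags of its own. Ordered as cerebellum, hippocampus and liver, with the knockout before the wild-type library in each, its tags were 37, 78, 38, 210, 7072 and 14988. Mup11 gave 28, 53, 14, 85, 2780 and 7461 tags in the same order. Mup17 gave 1, 5, 4, 16, 376 and 1456. In these 3 genes both liver libraries lay above every brain library, and the wild-type library was the higher one in every tissue.

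Mup20, Mup7 and Mup15 gave few tags alone. Mup20 gave 2, 3, 2, 5, 235 and 246 tags in that order, Mup7 gave 1, 1, 1, 4, 94 and 231, and Mup15 gave 2 in wild-type liver and 0 elsewhere. Their joint features held the rest. Mup7/Mup15 gave 68, 119, 47, 191, 8646 and 21830 tags, and Mup20/LOC100505376 gave 48, 122, 59, 249, 14092 and 15020. The most abundant of all was the joint feature of Mup2, Mup10 and LOC100861909 (now named Mup22 in RefSeq), with 367, 695, 283, 1396, 53840 and 95075 tags.

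**Figure D1:**
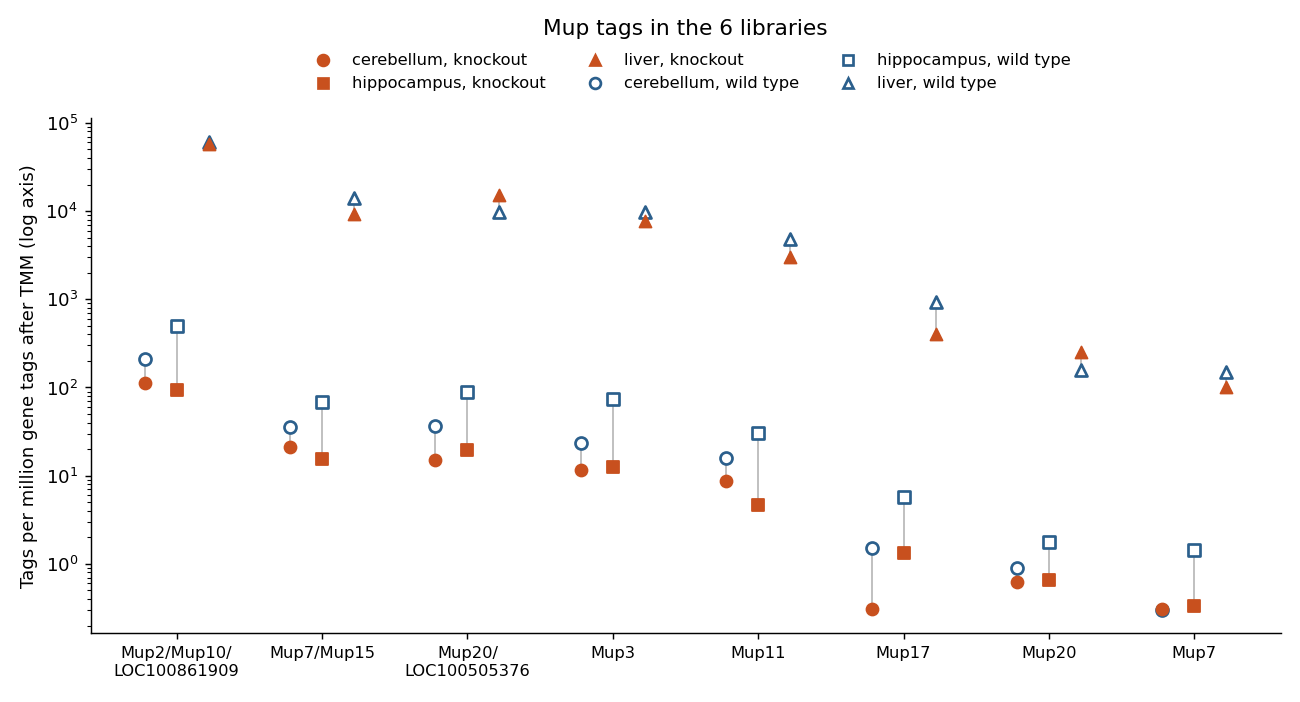
CPM, gene tags scaled to a common library size with TMM (log axis), for 8 Mup features. Each point is 1 library, filled for knockout and open for wild type; grey lines join the libraries of a tissue. Liver lies far above both brain tissues for every feature, and wild type lies above knockout in brain for all but Mup7 in cerebellum, where each library has 1 tag. Mup15 is left out because it has 2 tags in all.

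Tissues were compared with edgeR over both genotypes, 2 libraries per tissue, on 12915 features with Benjamini-Hochberg adjustment. Of the 36 members that passed the filter on low counts, 28 did so through liver and had fewer than 2 brain libraries with 10 tags or more, so their direction was set by the filter and no count over them is given. The other 8, counted apart after the values were seen, include Mup3, Mup11, Mup7/Mup15 and Mup20/LOC100505376. These 8 were called higher in liver than in cerebellum, as 32.6% of all features were, and higher in liver than in hippocampus, as 33.2% were. Mup17 is not among those 8 and passed through liver, so no test is read from it. Its differences were 9.43 on the log2 scale between liver and cerebellum (SE 0.32) and 7.55 between liver and hippocampus (SE 0.27). Mup3 differed by 9.05 (SE 0.54) and 7.93 (SE 0.51), and the joint feature of Mup2, Mup10 and LOC100861909 by 8.63 (SE 0.62) and 7.99 (SE 0.61). With library totals in place of TMM, the values of Mup17 were 8.14 and 6.36.

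Between the brain tissues 3 of the 36 members were called higher in hippocampus (15.8% of all features were), Mup1/Mup2, Mup17 and Mup1/Mup8/Mup12. Their tags were few. Mup1/Mup2 gave 3 and 3 tags in cerebellum and 3 and 29 in knockout and wild-type hippocampus, so its difference of 2.52 (SE 0.73, edgeR adjusted p = 0.0114) came from the wild-type hippocampus library: it was 3.53 in wild type alone and 0.09 in knockout alone. Mup17 differed by 1.88 (SE 0.61, adjusted p = 0.0221), with 1.93 in wild type alone and 2.09 in knockout alone. With DESeq2 none of the 3 passed (adjusted p = 0.0844, 0.0943 and 0.129), and without genotype as a block Mup17 and Mup1/Mup8/Mup12 did not (edgeR adjusted p = 0.218 and 0.0933).

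In liver, knockout and wild type differed little in the sum of Mup tags and more in which copies made it up. The sum was 1.06-fold lower in the knockout (log2 -0.09, 95% counting interval -0.10 to -0.08), a value that depends on scaling: it was -0.21 with library totals and -0.022 with DESeq2 size factors, which shift every liver value by -0.12 and 0.07. There is 1 library per group, so no test was made, and intervals (exact Clopper-Pearson) cover counting error only. In such bulk RNA fewer cells of a type and less RNA per cell cannot be told apart.

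Mup17 and Mup11 were the listed genes with the lowest knockout levels relative to wild type. Mup17, at 376 tags in knockout and 1456 in wild-type liver, was 2.31-fold lower (log2 -1.21, interval -1.38 to -1.05). Mup11, at 2780 and 7461 tags, was 1.60-fold lower (log2 -0.68, interval -0.74 to -0.62). Joint features that name Mup11 went both ways. Mup2/Mup10/Mup11 was lower (156 and 381 tags, log2 -0.55, interval -0.82 to -0.27). Mup11/LOC100048884/LOC100861909 was higher (1000 and 1083 tags, log2 0.63, interval 0.50 to 0.75). Mup7/Mup15 was 1.51-fold lower (log2 -0.59, interval -0.63 to -0.56), and Mup7 alone was at -0.55 (interval -0.92 to -0.20). Mup3 was 1.27-fold lower (log2 -0.34, interval -0.38 to -0.30).

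Mup20, the darcin gene, went the other way. Mup20/LOC100505376, at 14092 tags in knockout and 15020 in the more deeply sequenced wild-type library, was 1.57-fold higher in the knockout (log2 0.65, interval 0.62 to 0.68), and the 235 and 246 tags of Mup20 alone gave 0.68 (interval 0.41 to 0.94). Mup21, next to Mup3 but no listed gene, had 459 and 297 tags and was 2.59-fold higher (log2 1.37, interval 1.16 to 1.59). Mup6 was 1.34-fold higher (log2 0.42, interval 0.30 to 0.55), and Mup12, with 240 and 890 tags, was 2.22-fold lower (log2 -1.15, interval -1.36 to -0.94). The most abundant feature, Mup2/Mup10/LOC100861909, was near parity (log2 -0.08, interval -0.09 to -0.06), as was Mup2 (-0.02, interval -0.06 to 0.03, and 0.05 with DESeq2 size factors). The listed genes named here, Mup20/LOC100505376, Mup21, Mup6 and Mup12 kept their directions under both other scalings.

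A difference was called by size where the absolute log2 ratio was at least 1, the mean level at least 10 CPM (counts scaled by library size, with TMM) and the interval clear of 0. Of 36 members measured in liver 1 was called higher (1.54% of 8260 features were) and 2 lower (3.43% were). The higher one, Mup9/Gm2083/LOC100861909, rests on 16 and 10 tags (log2 1.42, interval 0.19 to 2.72). The lower ones were Mup17 and Mup2/Mup9/LOC100861909, with 63 and 263 tags (log2 -1.32, interval -1.74 to -0.92). By the counting interval alone 8 members lay above 0 (12.2% of all features did), 16 below (10.1% did) and 12 across it, and their median was -0.27 beside -0.02 over all features. The members not measured in liver, 37 of the 73, had a mean under 10 CPM.

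**Figure D2:**
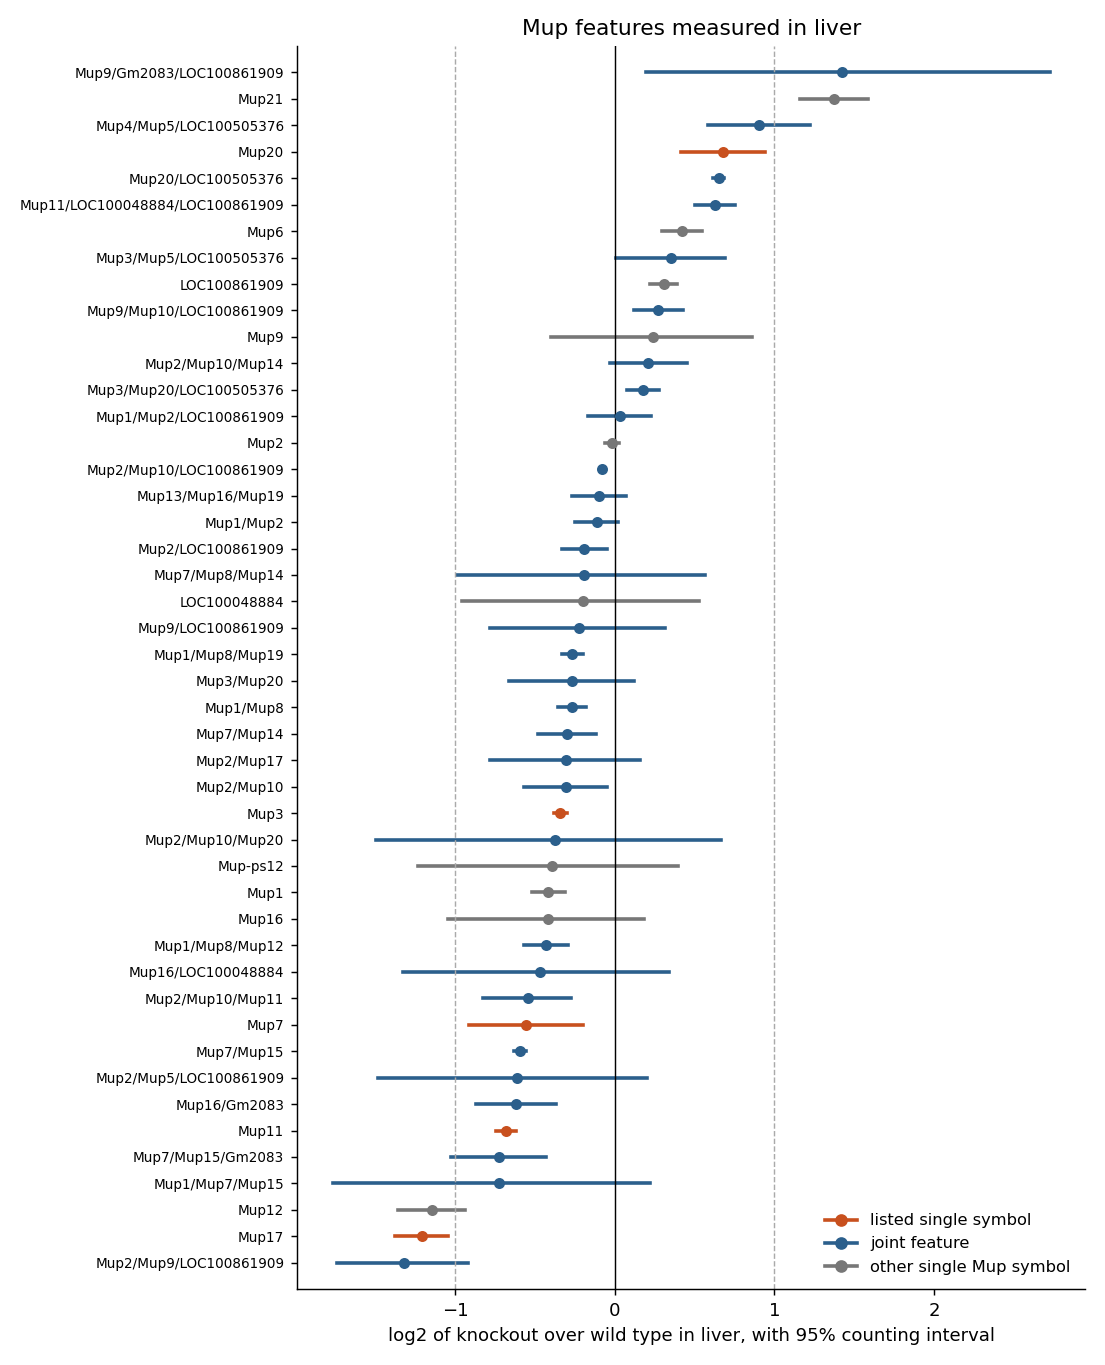
Log2 of knockout over wild type in liver for the 46 Mup features with a mean of at least 10 CPM. Points are 1 library against 1 library, bars are exact 95% counting intervals, and dashed lines mark a 2-fold difference. Mup20, Mup20/LOC100505376 and Mup21 lie to the right of 0 and Mup17, Mup12, Mup11 and Mup7/Mup15 to the left, with the most abundant joint feature near 0. Joint features of 1 gene can lie on both sides: Mup3/Mup20 and Mup2/Mup10/Mup20 lie to the left, and Mup11/LOC100048884/LOC100861909 to the right.

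Shares within the Mup tags do not depend on library scaling and show the same shift. Mup20/LOC100505376 made up 12.8% of the Mup tags of knockout liver (interval 12.6% to 13.0%) and 7.67% of those of wild-type liver (7.55% to 7.79%). Mup7/Mup15 made up 7.87% in knockout liver (interval 7.71% to 8.03%) and 11.2% in wild-type liver (11.0% to 11.3%). Mup11 was at 3.81% in wild type and 2.53% in knockout. Mup2/Mup10/LOC100861909 was at 48.6% and 49.0%.

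For the features given here, the share in knockout hippocampus overlapped that in knockout liver. The other brain libraries differed from the liver of their own genotype in Mup20/LOC100505376, Mup7/Mup15 and Mup2/Mup10/LOC100861909. Mup11 did so in knockout cerebellum only. Its intervals in wild-type cerebellum (3.06% to 5.29%) and wild-type hippocampus (2.62% to 4.02%) held the 3.81% of wild-type liver. Mup20/LOC100505376 was at 7.29% of the Mup tags in knockout cerebellum (interval 5.43% to 9.56%), below knockout liver, and at 10.9% in knockout hippocampus (8.39% to 13.8%), which overlaps it. In wild type it was at 9.36% in cerebellum (7.84% to 11.1%) and 9.56% in hippocampus (8.46% to 10.8%), both above wild-type liver. Mup2/Mup10/LOC100861909 made up 52.2% to 55.8% of the Mup tags in the 4 brain libraries, beside 48.6% and 49.0% in liver. Its interval in knockout hippocampus (47.9% to 56.5%) held the 49.0% of knockout liver.

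**Figure D3:**
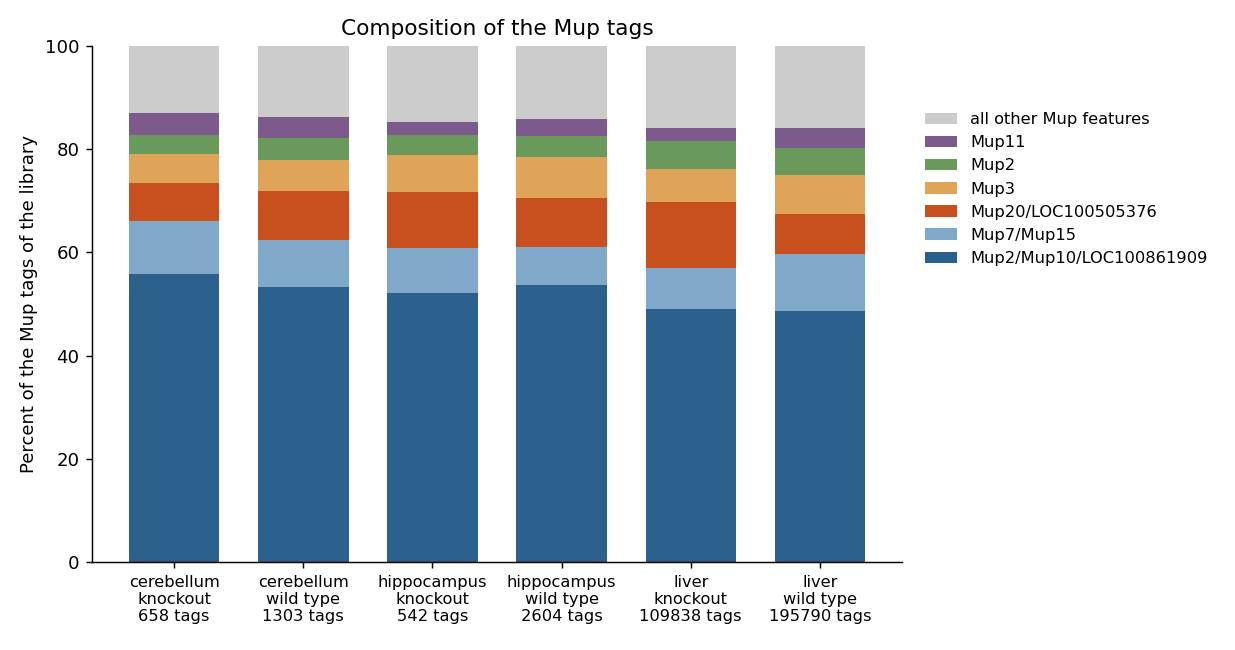
Composition of the Mup tags in each library, as percent of the Mup tags of that library. The segment of Mup20/LOC100505376 is 12.8% in knockout liver and 7.67% in wild-type liver, while that of Mup7/Mup15 is 7.87% and 11.2%.

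In brain the Mup sum was lower in the knockout, and so were most of the other liver transcripts measured there. The Mup sum was 1.92-fold lower in knockout cerebellum (log2 -0.94, interval -1.08 to -0.80) and 5.19-fold lower in knockout hippocampus (log2 -2.38, interval -2.51 to -2.24). The 12 hepatocyte markers on a fixed list (Alb, Apoa1, Fga and others) moved alongside, and their summed tags were 914 and 1764 in knockout and wild-type cerebellum (log2 -0.90, interval -1.02 to -0.78) and 776 and 3645 in hippocampus (log2 -2.34, interval -2.46 to -2.23). In cerebellum 1 of the markers, Cps1, was at 0 in wild type, and in hippocampus it was at 0 in both libraries. Of 26 abundant secreted liver proteins 21 were measured in each brain tissue. By size 10 were called lower in knockout cerebellum (0.316% of all features were) and 19 in knockout hippocampus (1.03% were). By interval 18 of the 21 lay below 0 in cerebellum (8.03% of all features did). There 1 lay above 0, the transferrin gene Trf (678 and 559 tags, log2 0.33). In hippocampus 21 lay below 0. Of 6 choroid plexus markers 4 were measured in cerebellum and 1 in hippocampus. In each tissue 1 was called lower, Kl in cerebellum (0.316% of all features were) and Ttr, which liver also makes, in hippocampus (1.03% were). The part of liver-type RNA in the Mup values of brain was not tested.

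Of 5 members measured in cerebellum 2 were called lower (0.316% of all features were), Mup20/LOC100505376 and Mup3, and all 5 had intervals below 0 (8.03% did). None was called higher (0.129% were). In hippocampus 6 members were measured, and 6 were called lower (1.03% of all features were) and 0 higher (0.432% were). Mup11 and Mup1/Mup8/Mup19 reached a mean of 10 CPM there only through the wild-type library, as Mup11 did in cerebellum, so these counts are partly set by that minimum. The other 4 members measured in each tissue stood above it in both libraries, and 2 of them were called lower in cerebellum and 4 in hippocampus. Mup3 was 2.04-fold lower in knockout cerebellum (37 and 78 tags) and 5.97-fold lower in knockout hippocampus (38 and 210 tags). Mup11 gave 28 and 53, then 14 and 85, which is 1.83-fold and 6.56-fold lower. Mup20/LOC100505376, higher in knockout liver, was 2.46-fold lower in knockout cerebellum (48 and 122 tags) and 4.56-fold lower in knockout hippocampus (59 and 249 tags).

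Set against the liver of the same genotype, the Mup sum lay within the range of the hepatocyte markers and above their median in each of the 4 brain libraries. It stood above 10 of the 12 markers in knockout cerebellum and in wild-type hippocampus, above 8 in knockout hippocampus and above 6 in wild-type cerebellum, and the difference was not tested. All Mup tags in knockout cerebellum were at 0.172% of the knockout liver level, and the 12 hepatocyte markers ranged from 0.0662% to 0.494% with a median of 0.117%. The highest of these markers, Cps1, rests on 1 tag, and the next was Alb at 0.212%. The Mup value was 0.151% in knockout hippocampus, beside a marker median of 0.112%, and 0.309% in wild-type cerebellum, beside 0.287%. Wild-type hippocampus stood highest, with 0.735% for Mup and a marker median of 0.578% (markers up to 1.21%). Among the main Mup features of that library the values ran from 0.484% (Mup7/Mup15) to 0.917% (Mup20/LOC100505376).

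**Figure D4:**
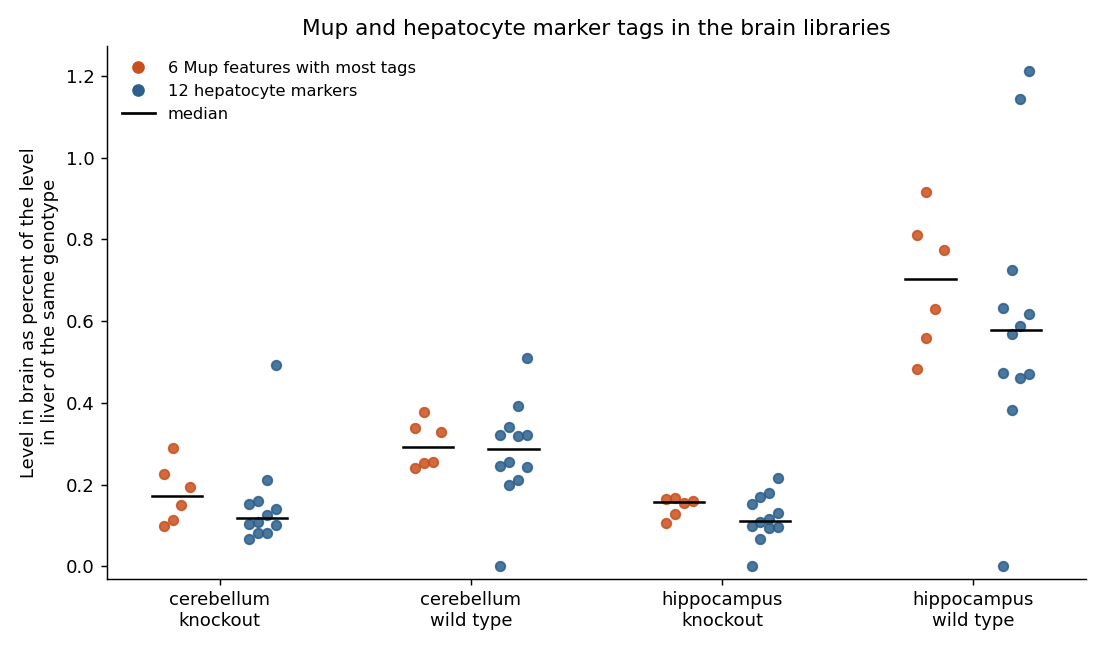
Level in each brain library as percent of the level in liver of the same genotype, for the 6 Mup features with most tags and 12 hepatocyte markers. Each point is 1 feature and the line is the median; points at 0 are markers with no tag. Both sets are highest in wild-type hippocampus, where all Mup features together are at 0.735%, and lower in the other 3 libraries.

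Across the 3 tissues genotype was tested with edgeR (quasi-likelihood, tissue as block) on 11378 features. These p-values measure agreement between tissues, not the spread between animals. The labels number the pooled animals 1 to 3 in each tissue of a genotype, and whether the same mice gave all 3 tissues is not stated in them. Of 14 members tested, Mup17 was lower in the knockout (log2 -1.31, SE 0.22, edgeR adjusted p = 0.0199, lower in 3 of 3 tissues) and no other member passed, where 0.0879% of all features were called lower. Mup17 passed the filter on low counts through both liver libraries and wild-type hippocampus (16 tags), with 1, 5 and 4 tags in the other brain libraries. The call is thus partly set by that filter, which Mup1/Mup2, among other members, passed in the same way. No Mup feature was called higher, as 0.00879% of all features were. Which Mup features passed depended on the libraries and the filter. Without hippocampus Mup21 was called higher (log2 1.26, SE 0.26, edgeR adjusted p = 0.000641), as it was with no filter on low counts (1.11, adjusted p = 0.00284). Without cerebellum none of 46 Mup features passed, and without liver 8 of 11 were lower (92 of all 12035 features were). LOC100861909, among these 8, gave 7, 23, 3 and 45 brain tags and passed the filter through its wild-type libraries only. Its direction was thus set by the filter. The call of Mup17 rests on few brain tags and on choices of method: its adjusted p was 0.205 without cerebellum, 0.00426 without hippocampus, 0.0904 with DESeq2 size factors and 1.00 with DESeq2, and ran from 1.15e-05 to 1.00 over all settings tried.

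The other main members were lower by similar amounts and missed the threshold. Mup11 was at -1.23 (SE 0.33, edgeR adjusted p = 0.46), Mup3 at -1.22 (SE 0.37, adjusted p = 0.733) and Mup7/Mup15 at -1.11 (SE 0.34, adjusted p = 0.733). Mup20/LOC100505376 was at -0.86 (SE 0.43, adjusted p = 0.999), with liver and brain in opposite directions.

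A list of 26 genes held growth hormone pathway genes, some of them targets of the hormone, and hepatic transcription factors. In liver its members lay below 0 more often than above it. Of 22 measured in liver 1 was called higher by size (1.54% of all features were) and 3 lower (3.43% were). By interval 2 lay above 0 (12.2% of all features did) and 9 below (10.1% did), with a median of -0.40 beside -0.02 over all features. Bcl6, a repressor that competes with Stat5, was higher (62 and 21 tags in knockout and wild type, log2 2.31, interval 1.57 to 3.09). Socs2, a feedback inhibitor induced by growth hormone, was lower (8 and 159 tags, log2 -3.57, interval -4.81 to -2.56). The other lower ones were the prolactin receptor Prlr (105 and 493 tags, -1.49) and the transcription factor Onecut1 (5 and 45 tags, -2.43). Prlr and Cux2 also stand on the list of female-biased genes below, so these lists overlap. The growth hormone receptor Ghr (527 and 940 tags, -0.09) and Stat5b (45 and 79 tags, -0.07) had intervals across 0; these 2 were picked after their values were seen. Hsd11b1, which regenerates active glucocorticoid and had the highest mean CPM on the list, stood at -0.15 (1468 and 2722 tags). Igf1, a growth hormone target named after its value was seen, was close to it in level and stood at -0.31 (1372 and 2853 tags, interval -0.41 to -0.22).

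Lists of sex-biased liver genes were read beside the Mup genes, which are male-biased. Of 20 female-biased genes 17 were measured in liver, and 16 were called lower in the knockout (3.43% of all features were), with a median of -5.42 when counts of 0 are set to 3. The most abundant, the hepcidin gene Hamp2, gave 40 and 3437 tags (log2 -5.68, interval -6.17 to -5.23). A1bg gave 0 and 899 tags, at least 179-fold lower against that floor. The member nearest parity was Cyp2a22 (121 and 335 tags, -0.73). Of 15 measured male-biased genes other than Mup 1 was called higher (1.54% of all features were), the fatty acid hydroxylase Cyp4a12a (327 and 173 tags, 1.66), and 1 lower (3.43% were), Ugt2b38 (8 and 30 tags, -1.16), with a median of 0.32. By interval 8 of the 15 lay above 0 (12.2% of all features did), as did Mup20 and Mup21, and 3 lay below it (10.1% did), as did Mup17, Mup11 and Mup7/Mup15. The female-biased genes and Xist were both lower in the knockout pool, while the male-biased genes went both ways. The part of the pools' sex makeup in the Mup values was not tested.

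Other lipocalins and other secreted liver proteins gave a further comparison. Of 9 lipocalin genes measured in liver 2 were called higher (1.54% of all features were). These were Orm2 (268 and 153 tags, log2 1.55) and Lcn2 (157 and 111 tags, 1.24), both acute phase proteins. The 1 called lower was Ptgds (11 and 57 tags, -1.63), as 3.43% of all features were. The most abundant, the retinol carrier Rbp4, stood at 0.53 (11208 and 13023 tags). Of 26 abundant secreted liver proteins 1 was called higher (1.54% of all features were), haptoglobin Hp (10242 and 6914 tags, 1.31), and 0 lower (3.43% were). Their log2 ratios ran from -0.10 for Fetub (861 and 1542 tags) upward around a median of 0.17, with Alb, the most abundant, at 0.14. The Mup features ran from -1.32 to 1.42. These extremes were Mup2/Mup9/LOC100861909 (63 and 263 tags) and Mup9/Gm2083/LOC100861909 (16 and 10 tags). Counting error is larger in them than in proteins listed for their abundance, so the 2 ranges are not alike in precision. Markers of red blood cells also stood higher in knockout liver. Of these 3 of 5 were called (1.54% of all features were), Hba-a1, Hba-a2 and Hbb-b1, and their part in these values was not tested.

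**Figure D5:**
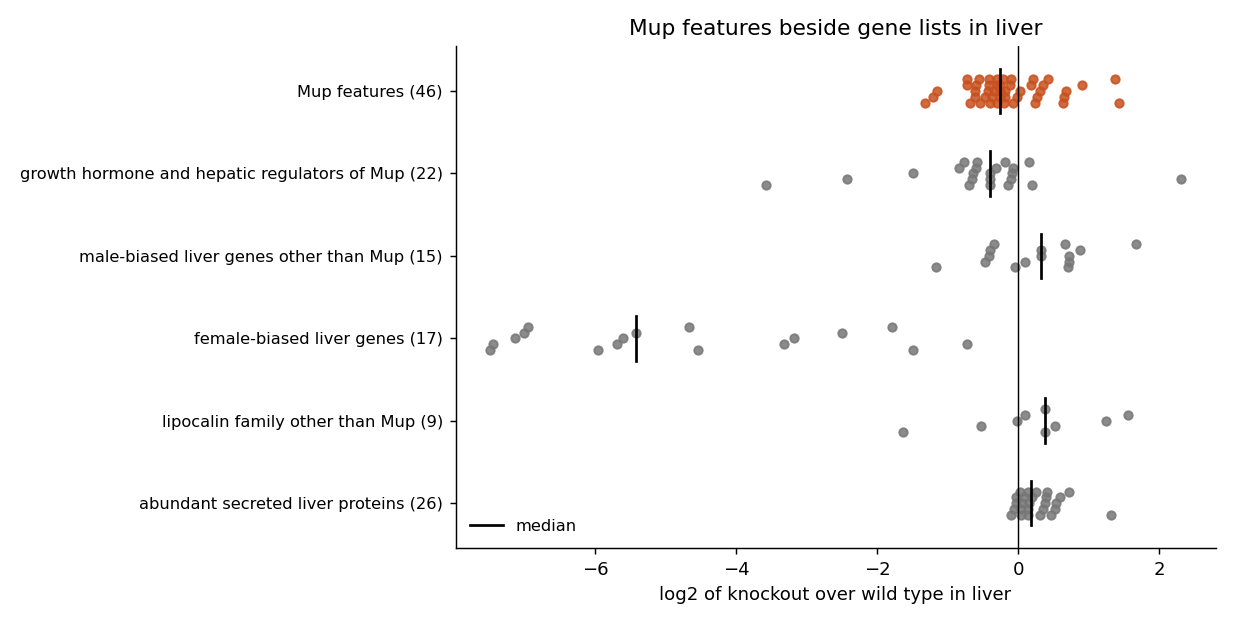
Log2 of knockout over wild type in liver for the 46 measured Mup features and for 5 gene lists (number measured in brackets); each point is 1 gene or joint feature, counts of 0 are set to 3, and the bar is the median. Mup features spread on both sides of 0 around a median of -0.27, while 16 of 17 female-biased genes lie below -1.

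The genes most like the Mup sum in their pattern were other hepatocyte products. Likeness was the Euclidean distance between centred profiles of log2(CPM + 1) over the 6 libraries, over 18377 named features outside the family. The nearest was Apoa5, an apolipoprotein of triglyceride transport, at a distance of 0.264 (15, 26, 12, 68, 2968 and 4882 tags in the order used above). Next were Itih4 (0.359), the paraoxonase Pon1 (0.36), the protease inhibitor Serpina1d (0.405) and Hpd (0.413), an enzyme of tyrosine breakdown. Among the members the distance to the sum was 0.179 for Mup2/Mup10/LOC100861909, 0.401 for Mup3, 0.66 for Mup20/LOC100505376, 0.732 for Mup11 and 1.37 for Mup17.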

How the data were processed

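The members and lists were chosen with earlier results of these data known. The deposited table holds the authors' raw counts of MACE tags for each RefSeq record, sense and antisense separately and not normalized, per the file headers. The submitters' processing notes name CASAVA 1.8.2 and build mm9, whereas a GRCm38 set stands in the table, and no source used here names an aligner. Sense counts were summed per symbol, and rows of several symbols stayed joint. Rows outside RefSeq transcripts were left out of all totals: genomic rows took 22.5% to 29.6% of all tags and tags without a match 7.21% to 8.83%.

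Fits used edgeR 4.0.16 in R 4.3.3 (quasi-likelihood, TMM, filterByExpr, Benjamini-Hochberg at 0.05), with DESeq2 1.42.0 as an alternative, and were checked on simulated counts. P-values measure only the spread between these pools. Within a tissue, CPM values were compared with exact intervals, and a count of 0 was set to 3. Other settings tried were scalings, filters, blocks, size limits and left-out tissues. Promoters came from RefSeq (GRCm38.p6) and 3' ends from GENCODE M21 transcripts, aligned with Biopython 1.88. All Mup features were open to naming, within each list the highest, lowest and most abundant member, and the 5 nearest in pattern.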

Additional observations from a re-analysis of the deposited data

Results flagged for a closer look

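The log2 ratio of knockout to wild type had opposite signs in liver and in a brain tissue for 5 Mup features, with counting intervals clear of 0 on both sides; the differences between tissues were not tested, since each group has 1 library. Mup20/LOC100505376 was at -1.30 in cerebellum and -2.19 in hippocampus against 0.65 in liver, on 48, 122, 59, 249, 14092 and 15020 tags. LOC100861909 was at -1.67 and -4.02 against 0.31, on 7 tags (knockout) against 23 (wild type) in cerebellum and 3 against 45 in hippocampus. In hippocampus alone, Mup3/Mup20/LOC100505376 was at -2.54 (8 tags in the knockout against 43 in wild type) and at 0.18 in liver. Mup6 was at -2.43 (2 against 10) and at 0.42 in liver, and Mup3/Mup5/LOC100505376 at -3.57 (1 against 11) and at 0.35 in liver. These 3 and LOC100861909 had a mean under 10 CPM in the brain tissues, below the minimum used for calls there. In these libraries the hepatocyte markers were at -0.90 in cerebellum, -2.34 in hippocampus and 0.15 in liver.

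Antisense tags, which the comparisons do not use, also appeared on Mup records. Cerebellum had 9 in the knockout and 5 in wild type, hippocampus had 4 against 21, and liver had 158 against 229.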

How the results depend on the processing

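No called Mup result reversed under any setting tried, while uncalled values near 0, such as Mup2 in liver, did change sign. Among single Mup features 17 values gained a call, 9 lost one, 57 moved and 696 stayed. The counts of calls over all features (higher, then lower) for knockout against wild type across tissues, 1 and 10 by default, were 0 and 5 with DESeq2 size factors, 0 and 2 with DESeq2, 25 and 87 with no filter on low counts, and 0 and 0 with no tissue block; antisense tags added gave 2 higher. Leaving out 1 tissue at a time gave 5 to 21 higher and 16 to 92 lower, and of the Mup features 0 were higher and 8 lower of 11 without liver, 1 and 3 of 46 without hippocampus, and 0 and 0 of 46 without cerebellum. Of the 8 lower without liver, LOC100861909 passed the filter through its wild-type libraries only. With no filter 1 was higher and 9 lower of 89. Library totals gave 2025 higher and 8584 lower for liver against cerebellum and 2191 and 8034 for liver against hippocampus. DESeq2 gave 1143 and 785 for hippocampus against cerebellum. By size, cerebellum had 35 and 45 with library totals, 115 and 175 at a limit of 0.58, and 143 and 120 at a minimum mean of 1 CPM. Hippocampus had 134 lower with library totals, 356 and 314 at 0.58, and 145 and 350 at the minimum of 1. Liver had 54 higher with library totals and 344 and 558 at 0.58. The Mup sum in liver was -0.21 with library totals and -0.022 with DESeq2 size factors. The cause was not tested. The fits across libraries hold tissue or genotype as a block. No paired analysis was possible because, beyond these blocks, each genotype and tissue has 1 library, so groups share only 1 replicate number; the animal numbers 1 to 3 of the pools recur in both genotypes.

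Pools of 3 animals with 1 library per group give no spread between animals, so within-tissue values carry counting error only. In brain Mup7 and Mup20 alone gave at most 5 tags in a library, and differences between genotypes were not detectable in them at this depth. Tags shared between copies cannot be given to 1 gene, and rows list at most 3 records.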
